A study of Mus musculus with 48 samples.

Results

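The D and E cyclins, their cyclin-dependent kinases and the Rb family members Rb1 and Rbl1 were examined as a set of 10 genes (Ccnd1, Ccnd2, Ccnd3, Ccne1, Ccne2, Cdk2, Cdk4, Cdk6, Rb1 and Rbl1) across 12 mouse mammary tumor models. Members were matched to the array by gene symbol, and the set was chosen with earlier results of these data known. All 10 were found among the 19938 genes with a named transcript cluster, which is the set of array probes that stands for a gene. Each member has 1 such cluster. The members' mean signals lay between the 54.3rd percentile of all genes (Ccne2) and the 99.7th (Cdk4), so each was above the median gene. Ccne2 was only a little above it, at 7.92 against 7.59. Its lowest tumor value, 6.90 in F311 replicate 1, lay within the array medians of 6.76 to 6.99.

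RNA was measured in 48 primary tumors, 4 per model, with 1 Affymetrix array per tumor. Cells of each model had been implanted orthotopically, in the #4 mammary fat pad of immunocompetent mice of the matching strain, and tumors were collected at 0.5 to 1.0 cm. Engineered FVB/N mice gave rise to M6, which is set against the others here, and to Met-1, HRM-1, 6DT1 and MVT-1, and an engineered 129Sv mouse to R3T. Spontaneous tumors gave rise to TS/A-E1, F311, 4T1, EMT-6 and D2A1 in Balb/c mice and to E0771 in C57Bl/6 mice. Per the methods, MVT-1 is a cell line from a mammary tumor of an MMTV-Myc/VEGF bitransgenic mouse, in which the MMTV promoter drives the transgenes; neither the labels nor the methods name the transgenes of M6 and the remaining engineered models. Each model is 1 cell line, so the 4 tumors of a model repeat the same line in different mice, and each tumor also holds host cells. Fewer cells of a type and less RNA per cell cannot be told apart in such samples. In 9 tumors the score of adipocyte markers or of B cell markers (mean log2 signal of the list relative to each gene's median over the 48 tumors) was above 2.5, and these are called host-rich tumors.

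D cyclins bind Cdk4 and Cdk6, and E cyclins bind Cdk2. These kinases phosphorylate the Rb protein and its relative p107, the product of Rbl1, which otherwise hold E2F transcription factors in check. E2F factors drive genes needed for DNA replication, and they also drive Ccne1, Ccne2 and Rbl1. D cyclins are best known in the mammary gland for linking growth signals to the cell cycle.

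The question set by the comparison across models was how the levels of these genes differ among tumors of different lines. All 10 members differed among the 12 models in limma's F-test (adjusted p between 7.2e-10 for Rbl1 and 0.00029 for Cdk6), as did 70.4% of all genes tested, so a passed test is common here. Differences between models took up 57.9% of the variance for Cdk6 and between 67.1% (Cdk4) and 81.8% (Rbl1) for the other members. The range between the highest and the lowest model mean was widest for Ccnd2, at 3.20 on the log2 scale (9.21-fold), which lay at the 97.3rd percentile of the ranges of all genes. It was narrowest for Cdk4, at 0.45 (1.36-fold, the 34.2nd percentile). The other 8 members had ranges between 0.81 (Ccnd3) and 1.69 (Ccne2). Among the 66 pairs of models, between 18 (Cdk6) and 38 (Rbl1) pairs differed for a member at an adjusted p under 0.05, where 26.5% of all gene by pair tests passed. Without M6, all 10 members still differed among the other 11 models (adjusted p between 7.6e-09 for Ccnd3 and 0.00038 for Cdk2), as did 68.6% of all genes.

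M6 tumors stood at the top of the order for 4 members, namely Ccne2, Cdk2, Rb1 and Rbl1, and at or near the bottom for Ccnd1 and Ccnd2. In the contrast of M6 with the mean of the other 11 models, 4 members were higher in M6, 2 were lower and 4 did not pass, where 36.6% of all genes passed in either direction, 18.9% higher and 17.7% lower. Against the other 4 FVB/N models the same counts were 4, 2 and 4, with 35.2% of all genes passing in either direction, 18.5% higher and 16.7% lower, and the members called were the same 6 genes. The values by member follow, from the retinoblastoma proteins and the E cyclin arm to the D cyclin arm.

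Rbl1 encodes p107, a relative of Rb that binds E2F factors. The 4 M6 tumors had a log2 signal of 10.19, 10.21, 10.13 and 10.33, against a lowest value of 8.69, a median of 9.45 and a highest value of 9.86 in the 44 other tumors. Every M6 tumor was above every other tumor, the nearest being 4T1 replicate 1. Such a separation upward was seen for 2.4% of all genes and for 3 of the 10 members (Rbl1, Cdk2 and Ccne2). The M6 mean of 10.21 ± 0.09 was followed by 9.78 ± 0.08 in R3T, 9.71 ± 0.11 in EMT-6, 9.69 ± 0.17 in E0771 and 9.67 ± 0.13 in 4T1 (SD, n = 4 each). TS/A-E1, D2A1, MVT-1, Met-1 and F311 lay between 9.30 and 9.47, and HRM-1 (9.14 ± 0.10) and 6DT1 (8.98 ± 0.33) were lowest. M6 was higher by 0.78 than the other 11 models (SE 0.09, limma adjusted p = 3.1e-09) and by 1.03 than the other 4 FVB/N models (SE 0.10, limma adjusted p = 3.4e-11). All 11 pairs with M6 passed, where 31.9% of all gene by pair tests with M6 did. The smallest of these steps was 0.44, to R3T (limma adjusted p = 0.0054), and no other pair of neighbours in the order passed.

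The Rbl1 promoter is shown because E2F factors are known to act on this gene and because Rbl1 was higher in M6 together with other genes of the E2F program. The sequence is RefSeq's, in build GRCm38.p6, from 250 bases before the gene start to 50 after it, at chr2:157204485-157204784 on the minus strand. The capitals mark TTTCGCGC, 1 of 2 spellings of the E2F motif that were searched on both strands, the other being TTTGGCGC. It begins 18 bases before the gene start.
Rbl1 promoter: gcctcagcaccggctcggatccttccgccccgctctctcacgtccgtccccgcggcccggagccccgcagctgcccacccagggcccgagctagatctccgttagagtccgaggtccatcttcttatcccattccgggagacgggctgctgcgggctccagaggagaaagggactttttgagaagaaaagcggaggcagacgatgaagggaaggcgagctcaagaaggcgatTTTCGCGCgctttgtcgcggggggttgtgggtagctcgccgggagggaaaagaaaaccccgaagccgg
A promoter was on hand for 6 of the 10 members, namely Ccnd3 (with 2 start sites), Ccne1, Cdk2, Cdk4, Cdk6 and Rbl1, and Rbl1 was the 1 member of these with either spelling. Of all 27025 genes with a promoter in the table, 251 (0.929%) held at least 1 of the 2 spellings. With TTTCCCGC and TTTGCCGC added, a choice made after the first count was seen, 2 of the 6 members and 704 genes (2.6%) held a match. The added member was Cdk2, whose promoter lies at chr10:128705002-128705301 on the minus strand and holds TTTCCCGC on the antisense strand, which reads as the capitals below.
Cdk2 promoter: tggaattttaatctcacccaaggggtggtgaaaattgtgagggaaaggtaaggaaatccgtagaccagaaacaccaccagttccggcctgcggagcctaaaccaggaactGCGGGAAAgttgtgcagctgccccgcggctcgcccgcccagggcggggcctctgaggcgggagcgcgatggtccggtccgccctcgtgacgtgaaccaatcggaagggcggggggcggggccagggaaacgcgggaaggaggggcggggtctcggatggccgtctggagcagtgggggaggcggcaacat
A match is a description of these letters and was not tested as a binding site.

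Cdk2 is the catalytic partner of the E cyclins. Its log2 signal was 10.13, 9.93, 10.19 and 10.02 in M6 tumors, against a lowest value of 9.06, a median of 9.47 and a highest value of 9.72 in the 44 other tumors. The groups did not overlap. The M6 mean was 10.07 ± 0.12, and the other 11 model means spanned a narrow band between 9.20 ± 0.12 in MVT-1 and 9.63 ± 0.04 in 4T1 (SD, n = 4 each). HRM-1 (9.61), E0771 (9.59), EMT-6 and R3T (9.57 each) and TS/A-E1 (9.53) lay close to 4T1, and D2A1 (9.41), Met-1 (9.36), 6DT1 (9.33) and F311 (9.25) lower. M6 was higher by 0.61 than the other 11 models (SE 0.07, limma adjusted p = 5.3e-09) and by 0.69 than the other FVB/N models (SE 0.08, limma adjusted p = 1.9e-09). Each of the 11 pairs with M6 passed, by 0.44 (4T1, limma adjusted p = 0.00049) to 0.86 (MVT-1).

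Cyclin E2, encoded by Ccne2, activates Cdk2 at the entry to S phase. Its log2 signal was 8.87, 8.71, 8.87 and 9.14 in M6 tumors, against a lowest value of 6.90, a median of 7.98 and a highest value of 8.60 in the other 44. M6 was again apart from every other tumor, with E0771 replicate 2 nearest. Model means ran from 8.90 ± 0.18 in M6 through E0771 (8.37 ± 0.22), MVT-1 (8.18 ± 0.25) and HRM-1 (8.02 ± 0.09) to R3T (7.36 ± 0.17) and F311 (7.21 ± 0.25; SD, n = 4 each). EMT-6 lay just below HRM-1, and D2A1, TS/A-E1, Met-1, 4T1 and 6DT1 lay between 7.71 and 7.88. M6 was higher by 1.06 than the other 11 models (SE 0.15, limma adjusted p = 1.4e-07) and by 0.96 than the other FVB/N models (limma adjusted p = 3.7e-06). All 11 pairs with M6 passed, the step to E0771 narrowly (0.52, limma adjusted p = 0.044).

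Cyclin E1, the product of Ccne1, did not share this order. Ccne1 was 9.34, 9.38, 9.73 and 9.37 in M6 tumors, against 9.58, 9.92, 10.19 and 10.03 in E0771 tumors and 9.86, 9.79, 9.48 and 9.59 in EMT-6 tumors, the models with the higher means. M6 followed at 9.45 ± 0.18, with E0771 at 9.93 ± 0.26 and EMT-6 at 9.68 ± 0.18. The lowest means were 8.61 ± 0.14 in F311, 8.55 ± 0.06 in 4T1 and 8.53 ± 0.35 in TS/A-E1 (SD, n = 4 each), all Balb/c models, and M6 was higher than these 3 in the pair tests, by 0.84, 0.90 and 0.92. The 4 remaining FVB/N models, D2A1 and R3T lay between 8.97 and 9.34. Against the other 11 models the difference was 0.35 (95% interval 0.05 to 0.64, limma adjusted p = 0.061) and did not pass, but it did pass with quantile normalization or without the dimmest 30% of genes (limma adjusted p = 0.047 each). No pair of neighbours passed the pair test. Over the 12 model means Ccne1 and Ccne2 had a Pearson r of 0.61 (0.64 over 11 models without M6), a description of 12 means from arrays on a common scale.

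Rb1 encodes the retinoblastoma protein. Its log2 signal was 10.61, 10.49, 10.26 and 10.48 in M6 tumors, against 10.36, 10.33, 10.28 and 10.27 in Met-1 tumors and 10.05, 10.20, 10.03 and 10.22 in R3T tumors. M6 and Met-1 overlapped, and 7 tumors of other models lay above the lowest M6 tumor. M6 (10.46 ± 0.14), Met-1 (10.31 ± 0.04) and R3T (10.12 ± 0.10) were followed by 6DT1 (10.03 ± 0.60), MVT-1 (9.98 ± 0.03) and EMT-6 (9.86 ± 0.13), and the lowest means were in HRM-1 (9.35 ± 0.09) and D2A1 (9.30 ± 0.21; SD, n = 4 each). F311, TS/A-E1, E0771 and 4T1 lay between 9.43 and 9.73. M6 was higher by 0.71 than the other 11 models (SE 0.13, limma adjusted p = 2.8e-05) and by 0.54 than the other FVB/N models (limma adjusted p = 0.002). Of the 11 pairs with M6, 8 passed, and Met-1, R3T and 6DT1 did not. No neighbours in the order passed the pair test. RNA level says nothing about the amount or phosphorylation of the Rb protein, which was not measured.

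**Figure D1:**
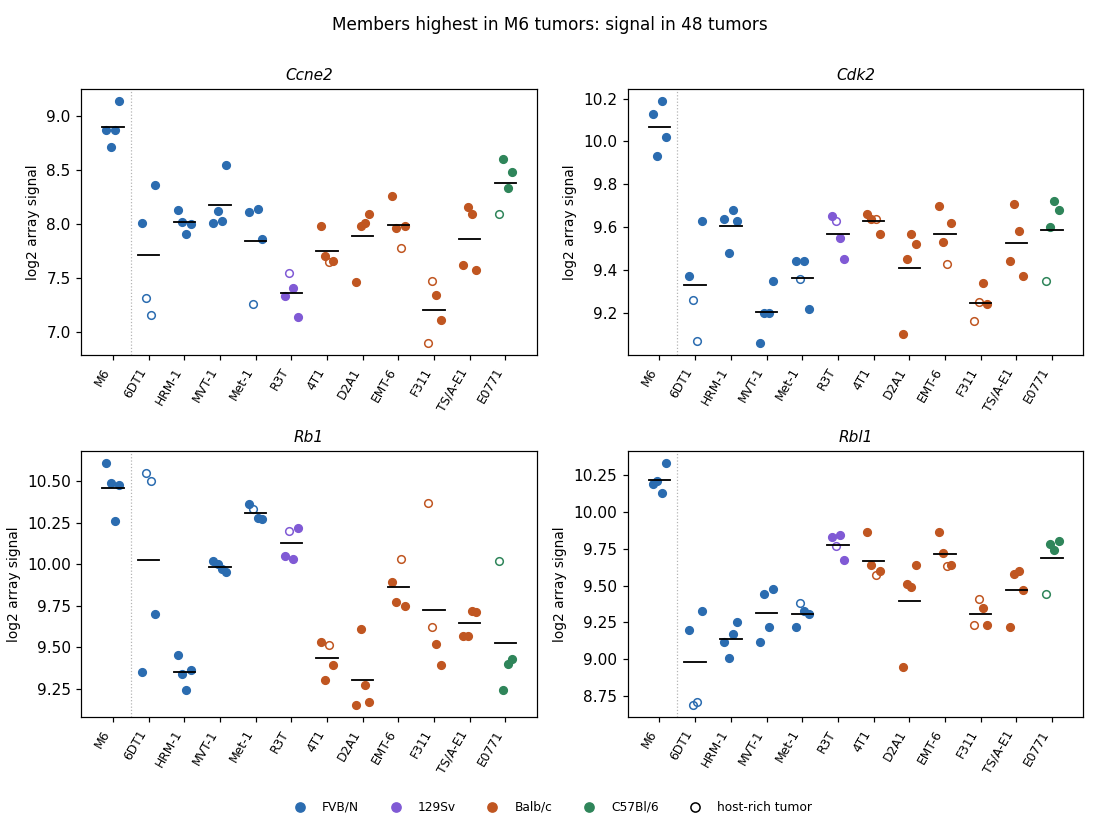
Log2 array signal of Ccne2, Cdk2, Rb1 and Rbl1 in each of the 48 tumors, by model (M6 at the left, then the other FVB/N models, R3T, the Balb/c models and E0771). Points are tumors, lines are means of 4 tumors and open points are the 9 host-rich tumors. The 4 M6 tumors lie above all 44 others for Ccne2, Cdk2 and Rbl1, and overlap Met-1 and a few other tumors for Rb1.

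The D cyclins went the other way in M6 for a pair of members. Cyclin D2 (Ccnd2), a partner of Cdk4 and Cdk6, had a log2 signal of 8.25, 9.11, 8.84 and 8.59 in M6 tumors, against a lowest value of 8.56, a median of 10.41 and a highest value of 12.03 in the 44 others. A single tumor, 6DT1 replicate 1, was below the highest M6 tumor. E0771 was highest, with 11.72, 11.94, 11.91 and 12.03 in its 4 tumors, and differed from the next model, HRM-1 (1.02, limma adjusted p = 0.022). Between M6 (8.70 ± 0.37) and E0771 (11.90 ± 0.13) lay MVT-1 (9.58 ± 0.39), 6DT1 (9.81 ± 1.15), 4T1 (9.89 ± 0.08), EMT-6 (9.93 ± 0.30), Met-1 (9.93 ± 0.91), R3T (10.41 ± 0.16), TS/A-E1 (10.47 ± 0.05), F311 (10.65 ± 0.50), D2A1 (10.80 ± 0.19) and HRM-1 (10.88 ± 0.27; SD, n = 4 each). M6 was lower by 1.69 than the other 11 models on the log2 scale (contrast -1.69, SE 0.25, limma adjusted p = 7.4e-07) and by 1.35 than the other FVB/N models (contrast -1.35, limma adjusted p = 9.2e-05). Of the 11 pairs, 10 passed, and MVT-1, the nearest, did not (-0.88, limma adjusted p = 0.051), although the 4 M6 tumors were all below the 4 MVT-1 tumors, at 9.16, 10.09, 9.55 and 9.52.

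Cyclin D1 (Ccnd1), the D cyclin most often tied to breast cancer, had one of the highest signals of the array, at the 99.2nd percentile of mean signal. It was 11.76, 11.75, 11.34 and 11.62 in M6 tumors, against a lowest value of 11.17, a median of 12.35 and a highest value of 12.83 in the 44 others. The lowest tumor of all was F311 replicate 1, and 8 other tumors were below the highest M6 tumor. The order ran from 4T1 (12.75 ± 0.09), HRM-1 (12.63 ± 0.07) and R3T (12.51 ± 0.05) through Met-1 (12.45 ± 0.47), TS/A-E1 (12.40 ± 0.11), E0771 (12.31 ± 0.11), F311 (12.19 ± 0.68), EMT-6 (12.13 ± 0.09), MVT-1 (11.87 ± 0.09) and D2A1 (11.79 ± 0.17) to M6 (11.62 ± 0.20) and 6DT1 (11.50 ± 0.09; SD, n = 4 each). No step between neighbours passed. M6 was lower by 0.61 than the other 11 models (contrast -0.61, SE 0.13, limma adjusted p = 0.00025), lower in 8 of 11 pairs, and lower by 0.50 than the other FVB/N models (contrast -0.50, limma adjusted p = 0.0052). The 3 pairs that did not pass were with D2A1, MVT-1 and 6DT1.

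Cyclin D3 (Ccnd3) differed less. It was 10.26, 10.54, 10.65 and 10.40 in M6 tumors, against a median of 10.35 in the 44 others. EMT-6 (10.66 ± 0.06) and Met-1 (10.64 ± 0.10) were highest, M6 was 10.46 ± 0.17, and 4T1 was lowest at 9.85 ± 0.09 (SD, n = 4 each), below TS/A-E1 by 0.33 (limma adjusted p = 0.0041), the single step between neighbours to pass. The difference of M6 from the other 11 models did not pass (0.12, 95% interval -0.01 to 0.25, limma adjusted p = 0.15), although without the host-rich tumors the difference passed (0.15, limma adjusted p = 0.033), and without M6 replicate 1 it did as well (0.19, limma adjusted p = 0.04). It was higher in M6 than in 4T1, TS/A-E1, 6DT1 and D2A1, by 0.24 to 0.61.

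Cdk4, a D cyclin kinase, had the highest mean signal of the set and the narrowest range. Its log2 signal in M6 tumors was 12.64, 12.51, 12.56 and 12.63, against a lowest value of 12.23, a median of 12.63 and a highest value of 12.97 in the 44 others. HRM-1 was highest (12.88 ± 0.09) and 6DT1 lowest (12.44 ± 0.21), and M6 stood between them at 12.58 ± 0.06 (SD, n = 4 each). Against the other 11 models M6 differed by -0.04 (95% interval -0.14 to 0.07, limma adjusted p = 0.68) and against the other FVB/N models by 0.00 (95% interval -0.12 to 0.12). Of the 11 pairs with M6, that with HRM-1 passed (-0.30, limma adjusted p = 0.0014). Cdk6, its close relative, was 10.49, 11.10, 11.02 and 10.89 in M6 tumors, against a median of 11.11 in the 44 others. HRM-1 (11.61 ± 0.08), R3T (11.35 ± 0.04) and D2A1 (11.25 ± 0.26) were highest, and M6 (10.88 ± 0.27), 6DT1 (10.50 ± 0.73) and Met-1 (10.25 ± 0.27) lowest (SD, n = 4 each). The difference to the other 11 models was -0.15 (95% interval -0.50 to 0.20, limma adjusted p = 0.58), and it became -0.26 without the host-rich tumors (limma adjusted p = 0.0035). M6 was lower than HRM-1 by 0.73 (limma adjusted p = 0.018) and higher than Met-1 by 0.63 (limma adjusted p = 0.044). Over the 12 model means Cdk4 and Cdk6 had a Pearson r of 0.75, also 0.75 over the 11 models other than M6, and HRM-1 headed both.

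**Figure D2:**
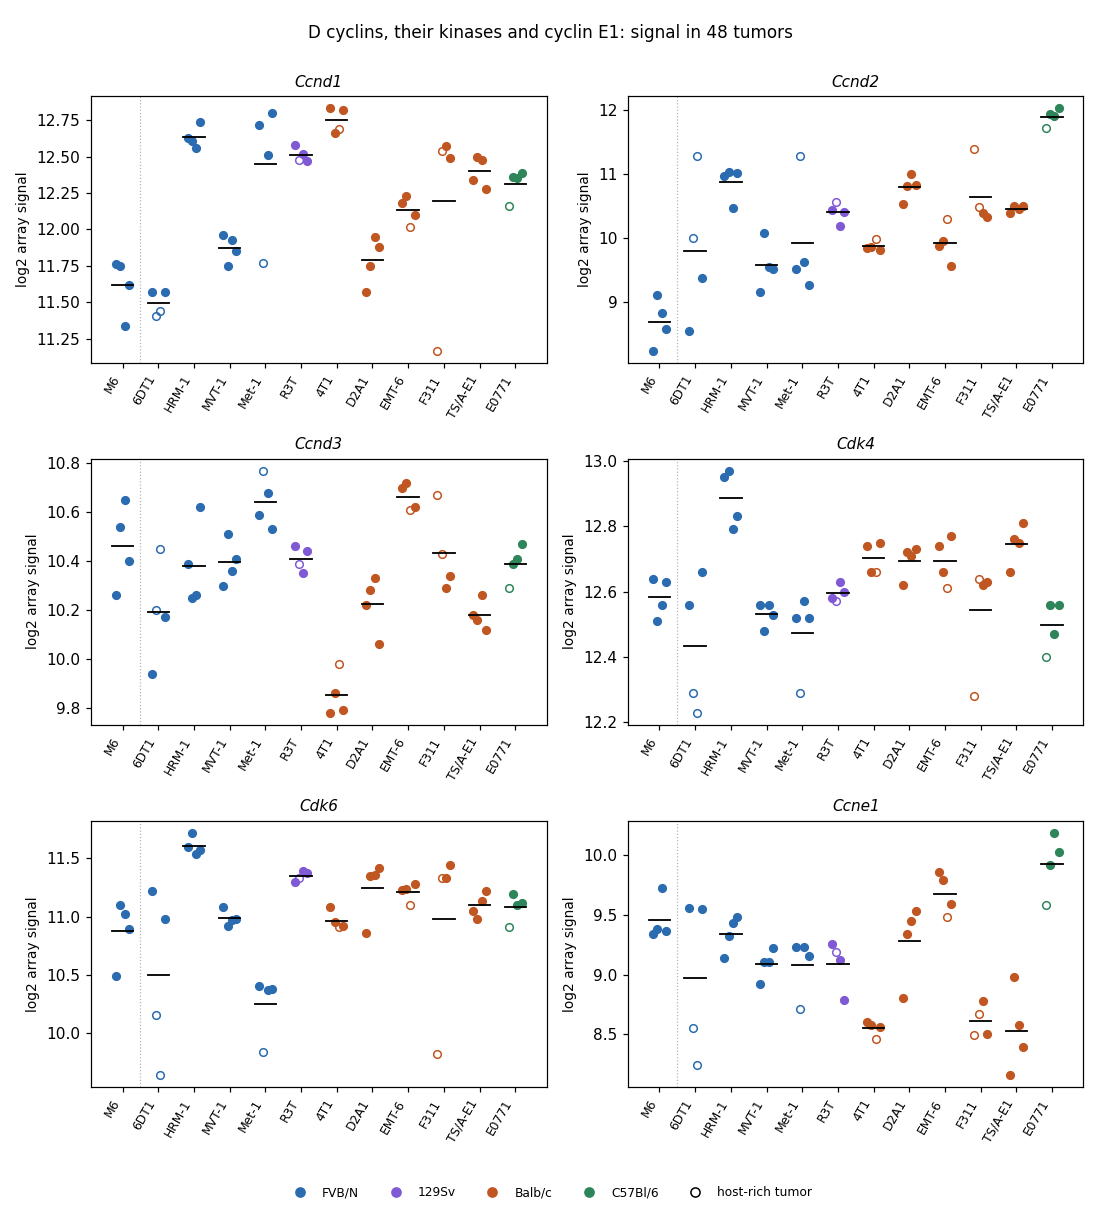
Log2 array signal of Ccnd1, Ccnd2, Ccnd3, Cdk4, Cdk6 and Ccne1 in each of the 48 tumors, by model in the same order as in the plot of Ccne2, Cdk2, Rb1 and Rbl1. Points are tumors, lines are means of 4 tumors and open points are the 9 host-rich tumors. M6 is lowest for Ccnd2, E0771 is highest for Ccnd2 and Ccne1, and the axis of each panel has its own scale.

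**Figure D3:**
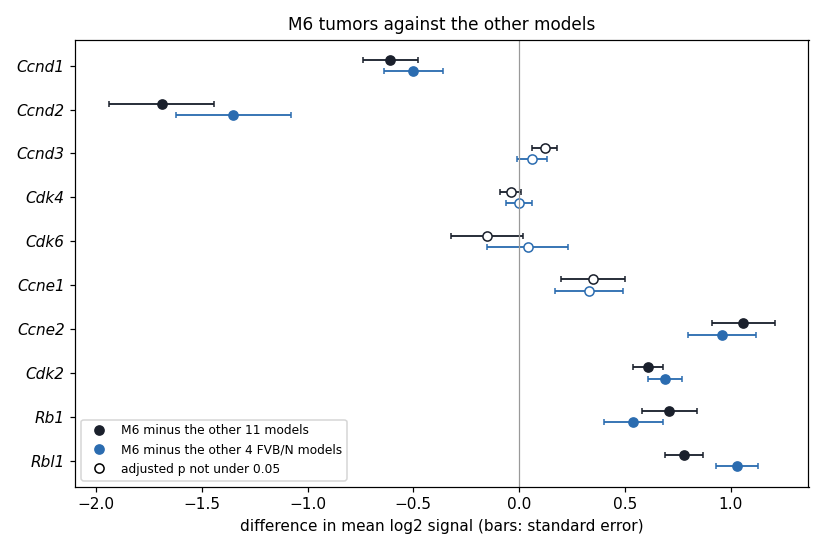
Difference in mean log2 signal of M6 from the other 11 models (dark) and from the other 4 FVB/N models (blue), for each member, with the standard error as bars. Filled points passed limma's test at an adjusted p under 0.05. Ccnd1 and Ccnd2 lie below 0, Ccne2, Cdk2, Rb1 and Rbl1 lie above it, and Ccnd3, Ccne1, Cdk4 and Cdk6 are open.

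The tumors of a model did not always agree, and those that stood apart were often host-rich. The 9 host-rich tumors were 1 tumor each of 4T1, E0771, EMT-6, Met-1 and R3T, and 2 each of 6DT1 and F311; none was an M6 tumor. Each host-rich tumor was compared with the tumors of its own model that were not host-rich. In 6DT1, and likewise in F311, the 2 host-rich tumors were compared with the same 2 others, so the 9 comparisons are not independent. The share of all genes that shifted in this way was not counted, so the counts that follow are descriptions. Rb1 was higher in all 9 (by 0.03 to 1.03, median 0.22) and Cdk6 lower in all 9 (by -1.56 to -0.02, median -0.23). In 6DT1, Rb1 was 10.55 and 10.50 in the 2 such tumors, against 9.35 and 9.70 in the other 2. In F311 replicate 1, Cdk6 was 9.82 and Rb1 10.37, against 11.33 to 11.44 and 9.39 to 9.52 in replicates 3 and 4. Ccnd2 was higher in 8 of the 9, by up to 2.32, and Ccnd1 and Cdk4 were lower in 8 of the 9. Ccne1, Ccne2, Cdk2 and Rbl1 were lower in 7 of the 9, at the most by -1.31, -1.02, -0.43 and -0.58. Of these, Ccne2, Cdk2 and Rbl1 were higher in M6, which had no host-rich tumor. D2A1, HRM-1, MVT-1 and TS/A-E1 had none either. Their model means were 9.20 to 9.61 for Cdk2, 7.86 to 8.18 for Ccne2 and 9.14 to 9.47 for Rbl1. Those of M6 were 10.07, 8.90 and 10.21. The host-rich label rests on adipocyte and B cell markers only. Rb1, which was higher in the host-rich tumors, also had its highest model mean in M6. Without the 9 tumors, the pairs of models that differed increased to 47 for Ccnd1 and 47 for Ccnd2, 44 for Rb1 and 28 for Cdk6, against 30, 29, 28 and 18 with all 48. Over all genes the share of pair tests that passed was 33.7% without the 9 tumors, against 26.5% with all 48. The 6 members called in M6 were called without them too, where 45.7% of all genes passed against the other 11 models and 43.7% against the other FVB/N models. The part of these tissues in the signal was not tested.

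The other genes of the pathway were taken from lists. Of 6 CDK inhibitors measured, 5 were higher in M6 than in the other 11 models and none lower. Of all genes, 18.9% were higher and 17.7% lower. The median difference of the inhibitors was 0.56, where that of all genes was 0. Cdkn1b, which encodes p27, an inhibitor of Cdk2, was 11.26, 11.22, 11.17 and 11.44 in M6 tumors, above all 44 others, with 4T1 next at a mean of 10.91 (difference from the other 11 models 0.71, limma adjusted p = 3.6e-12). Cdkn2a, which encodes p16 and p19Arf, was 9.84 ± 0.34 in M6, but 10.56 ± 0.13 in HRM-1 and 10.43 ± 0.15 in TS/A-E1 (SD, n = 4 each), and 7.29 or less in 4T1, 6DT1, E0771 and MVT-1. Its difference in M6 was 1.27 (limma adjusted p = 0.00012). Its array cluster cannot separate the 2 products here, as only 1 cluster carries the symbol. Cdkn2c (p18), which inhibits Cdk4 and Cdk6, was 0.92 higher (limma adjusted p = 0.0019), Cdkn2d (p19) 0.40 higher (limma adjusted p = 8.5e-05) and Cdkn1c (p57) 0.31 higher (limma adjusted p = 0.0026). Cdkn2c was 9.99, 9.95, 11.12 and 10.08 in M6, against 10.43, 10.22, 10.29 and 10.38 in 4T1 and 10.16 to 10.60 in EMT-6. Cdkn1c was 7.47, 7.26, 7.51 and 7.18 in M6, against 7.35, 7.77, 7.93 and 7.16 in 6DT1, with 7.77 and 7.93 from host-rich tumors. By mean signal Cdkn2d and Cdkn1c lay at the 49.0th and 43.4th percentiles of all genes. Cdkn2b (p15) differed by 0.32 (limma adjusted p = 0.27). Against the other FVB/N models 4 of the 6 were higher, all but Cdkn1c and Cdkn2b, where 18.5% of all genes were higher.

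Of 11 E2F factors and Rbl2, 6 were higher in M6 than in the other 11 models and 1 lower. E2f2, an activator, was 1.04 higher (limma adjusted p = 2.1e-12), E2f7, a repressor that E2F itself induces, 0.97 higher (limma adjusted p = 3.7e-09), and the dimerisation partners Tfdp1 and Tfdp2 0.78 and 0.56 higher. E2f2 was 8.87, 8.68, 8.68 and 9.10 in M6 tumors, against means of 7.49 to 8.04 in the other models. E2f6, a repressor, was the lower gene (-0.40, limma adjusted p = 0.0052), and E2f3, E2f4, E2f5 and Rbl2 did not pass; these 5 genes are named after their values were seen. All 6 genes of the MuvB core, which joins p107 or its relative p130 in the DREAM repressor complex, and of B-Myb, which binds MuvB in their place later in the cycle, were higher, with Mybl2 at 1.00, Lin54 at 0.67, Lin52 at 0.45 and Rbbp4 at 0.32. Of the 10 regulators of cyclin-CDK activity and turnover, 3 were higher and 2 lower, which is close to the 18.9% and 17.7% of all genes that passed. Ccnh and Cdk7, which form the kinase that activates other CDKs, were the lower ones (-0.51 and -0.44), and Wee1 and Cdc25a were higher by 0.52 and 0.41.

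E2F target genes of S phase were higher in M6 without exception. All 22 measured genes passed against the other 11 models, with a median difference of 1.02. All 22 also passed against the other FVB/N models, with a median of 1.19. Of all genes, 18.9% and 18.5% were higher in M6 in these contrasts. For 11 of the 22, every M6 tumor was above every other tumor, which held for 2.4% of all genes. Gins2, a subunit of the replicative helicase, was 10.46, 10.31, 10.33 and 10.13 in M6 tumors, 1.08 higher than the other models (limma adjusted p = 4.4e-13), and R3T was next at 10.03 ± 0.16. Mcm5, another helicase subunit, was 11.68, 11.54, 11.56 and 11.47 in M6 tumors, 1.35 higher (limma adjusted p = 1.3e-12), with at most 10.70 in the mean of another model. Mcm4 was 1.19 higher and Ezh2, a histone methyltransferase, 0.97 higher. The score of these 22 genes, their mean log2 signal relative to each gene's median over the 48 tumors, was 0.87 to 1.00 in the 4 M6 tumors, against -1.04 to 0.55 in the 44 others. Of 11 mitotic genes, 9 were higher (median 0.71), led by Mki67, Kif11, Cdc20 and Aurkb (0.95, 1.04, 0.92 and 0.76). Aurka and Plk1, named after their values were seen, did not pass against the other 11 models but passed against the other FVB/N models, where all 11 did. The counts of these lists are descriptions.

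The E2F motif in the promoters of such genes is shown for comparison with Rbl1. These genes were listed as E2F targets, so how many of them hold the motif says nothing about M6. Of the 18 S phase E2F target genes with a promoter in the table, 9 held at least 1 of the 2 spellings, against 1 of the 6 members and 0.929% of all genes. The 4 sequences below come from GRCm38.p6, are read 5′ to 3′ on the strand where the motif reads as TTTGGCGC or TTTCGCGC, and have the motif in capitals.
Rbl1: gaaggcgatTTTCGCGCgctttgtcg
Mcm5: gccaagaacTTTCGCGCcaaaacgtc
Ezh2: gttgctgcgTTTGGCGCtcggtccgg
Mcm6: gcgtatgctTTTGGCGCgaaaagtgc
In Mcm5 and Mcm6 the motif on 1 strand overlaps another on the opposite strand, so these are not counted as separate sites. The Mcm6 promoter also holds a further TTTGGCGC, not shown, that begins 47 bases before the gene start. No match in a window says only that these letters are not there.

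**Figure D4:**
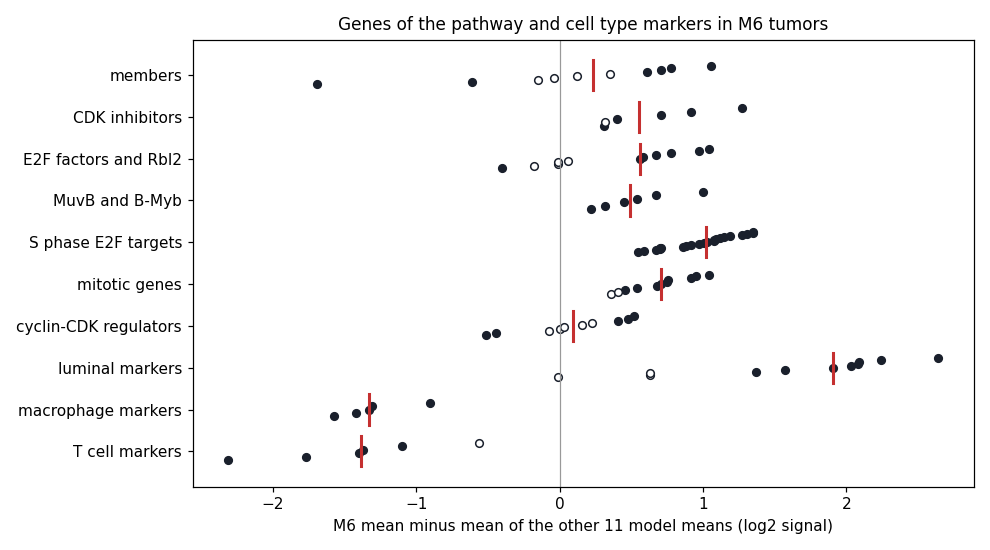
Difference in mean log2 signal of M6 from the other 11 models for each measured gene of 7 pathway lists and 3 cell type marker lists. Points are genes, filled where limma's adjusted p was under 0.05, and the red line is the median of the list. S phase E2F targets all lie above 0, with a median of 1.02, and macrophage and T cell markers lie below 0.

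Over the 12 model means, the score of S phase E2F targets had a Pearson r of 0.84 with Cdk2, 0.82 with Rbl1 and 0.74 with Ccne2 (0.65, 0.65 and 0.47 without M6), and 0.08 with Rb1 (-0.53 without M6). These correlations are over 12 means on a common array scale and include M6, which had the highest mean of each of the 4 genes. Ccnd2 and Rb1 had r = -0.69 (-0.55 without M6). The genes with the most similar order over the 12 means, by Pearson r, were Mtpap (0.972), Zfp958 (0.971) and Polr2d (0.921) for Ccne2, Edc4 (0.963), Rfwd3 (0.950) and Iqgap3 (0.933) for Rbl1, Chaf1a (0.925), Mis18a (0.916) and Usp37 (0.912) for Cdk2, Myof (0.944), Zcchc4 (0.937) and Clcf1 (0.933) for Cdk6, and G3bp2 (0.926), Nckipsd (0.881) and Itga9 (0.858) for Ccnd1. For the other members they were Wdr3 (0.903), Faim (0.901) and Xpot (0.894) for Ccnd2, Ap4e1 (0.904), Hsph1 (0.881) and Mak16 (0.875) for Ccne1, Csnk1g1 (0.899), Kpnb1 (0.898) and Sarnp (0.896) for Cdk4, and Lrrc57 (0.855), Elovl1 (0.845) and Per1 (0.804) for Ccnd3. For Rb1 they were Zfp353-ps (0.908), Fam161b (0.866) and Eddm3b (0.863), of which Zfp353-ps, a pseudogene, and Eddm3b are dim, with model means of at most 5.12 and 5.70.

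Some cell type markers also differed between M6 and the other 11 models, where 18.9% of all genes were higher and 17.7% lower. None of 7 adipocyte, 7 fibroblast, 5 B cell and 3 milk protein markers passed. Of 4 endothelial markers 1 was lower, and of 4 neutrophil markers 2 were lower. In M6, 5 of 5 macrophage markers and 5 of 6 T cell markers were lower than in the other 11 models (medians -1.33 and -1.38), and 8 of 11 luminal epithelial markers were higher (median 1.91). The macrophage score was -1.95 to -0.56 in M6 tumors, against -0.98 to 0.73 in the others, and the T cell score was -1.37 to -1.08, against -1.10 to 3.39. The luminal score was 0.16 to 1.27 in M6, against -2.97 to 1.38. By model mean it was highest in HRM-1 (1.29), followed by M6 (0.96), 4T1 (0.78), R3T (0.70) and TS/A-E1 (0.55), so a high score was not particular to M6. Among the 6 basal markers Krt17 and Krt14 were higher, Acta2 was lower and 3 did not pass. The part of these cells in the M6 values of the members was not tested. As a check of the tumor label, the luminal score was lowest, on average, in E0771 (-2.42), D2A1 (-2.38), MVT-1 (-2.09), EMT-6 (-2.02) and 6DT1 (-1.06), so luminal epithelial markers were low in the first 4 of these models. In 6DT1 the score was 0.02 and -0.09 in the 2 host-rich tumors, against -2.07 and -2.11 in replicates 1 and 4, so the mean describes neither pair.

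Strain was set against the same 10 genes on model means, 5 Balb/c models against 5 FVB/N models. None of the 10 passed, where 0.191% of all genes (38) did and 8.01% had an unadjusted limma p under 0.05. The smallest exact permutation p of the members was 0.0794, for Rb1, which averaged 9.59 ± 0.23 in Balb/c models and 10.03 ± 0.43 in FVB/N models (SD over 5 model means each, limma adjusted p = 0.64). For the other 9 members the exact 2-sided permutation p lay between 0.19 (Ccne2) and 0.865 (Cdk2), over 252 splits. Origin coincided with strain in these 10 models, so the 2 cannot be told apart.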

How the data were processed

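Total RNA of 48 tumors was measured on Affymetrix mouse gene arrays, 1 per tumor. The authors deposited log2 signal per transcript cluster, and the normalization behind it is not given in the sources used here. Array medians lay between 6.76 and 6.99, and no arrays were duplicates. Precision is limited by the 4 tumors per model, and each model is 1 cell line. Of 35556 clusters, 21789 name 1 gene, and each of 19938 genes was taken from its brightest cluster, by mean over the 48 arrays (of 2 clusters for 9 listed genes, Cdkn1b, Cdk7, E2f3, Tfdp1 and Lin52 among those named). Some listed genes (Cdkn1a, Ccnb1, a few markers and others) are not analysed here.

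Models were compared with limma 3.58.1 in R 4.3.3 on all 48 tumors, with Benjamini-Hochberg adjustment over all genes (over all genes and all 66 pairs together for pairs), and a call needs an adjusted p under 0.05. P-values measure the spread between tumors of 1 cell line. Strain was tested on model means. Other steps used Python 3.11.15, pandas 2.3.3, scipy 1.17.1 and matplotlib 3.10.9. All 10 members are named, all CDK inhibitors, and of each other list up to 4 genes with the smallest p in M6, apart from those said to be named after their values were seen. Mcm6 is named outside this rule, for its promoter window. The members and lists were chosen with earlier results of these data known. The fits were tested on simulated data.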

Additional observations from a re-analysis of the deposited data

Results flagged for a closer look

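In 120 groups of 4 tumors (10 members by 12 models) the tumor at the edge of its group was far from the others in 11, and chance flags about 1 in 20 groups. Of the 11, 6 are in host-rich tumors. F311 replicate 1 accounted for 4 of these, with 11.17 for Ccnd1 (nearest F311 tumor 12.49), 11.40 for Ccnd2 (10.49), 12.28 for Cdk4 (12.62) and 9.82 for Cdk6 (11.33). Met-1 replicate 2 accounted for the other 2, with 8.71 for Ccne1 (9.16) and 9.84 for Cdk6 (10.37). The remaining values are 12.62 for Cdk4 (12.71) and 10.86 for Cdk6 (11.35) in D2A1 replicate 1, 10.47 for Ccnd2 in HRM-1 replicate 3 (10.97), 7.98 for Ccne2 in 4T1 replicate 1 (7.70), and 9.73 for Ccne1 in M6 replicate 3 (9.38).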

How the results depend on the processing

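Settings tried were centred arrays, quantile normalization, averaged clusters, a filter removing the dimmest 30% of genes, an intensity trend or robust prior, the replicate block, the methods' one-way test and t-test, and leaving out the 9 host-rich tumors or each tumor or model in turn. The fit without M6 and the recounts of listed genes were added after seeing the data. The 6 members called in M6 kept their direction and call in every alternative run. Leaving out 1 tumor gave 6035 to 7707 genes called for M6 against the other 11 models (7304 with all), 5892 to 7378 against the other FVB/N models (7027), 13756 to 14270 for the F-test (14031) and 336175 to 378104 for pairs (349189). Values near 0 changed sign. Cdk4 in M6 against the other 11 models was 0.011 with quantile normalization. Against the other FVB/N models Cdk4 was -0.030 with centring, -0.059 without the 9 tumors and -0.019 to 0.025 without 1 tumor, Cdk6 was -0.14 without the 9 tumors and -0.035 to 0.17 without 1 tumor, and Ccnd3 was -0.0013 to 0.13 without 1 tumor. Cdk2 in Balb/c against FVB/N models was 0.018 without F311 and 0.099 without M6. The 38 genes called for strain became 1545 with the methods' unadjusted t-test, 489 with all tumors and the model as a random block, 446 with the replicate block added, and 22, 19, 24 and 21 without 4T1, EMT-6, Met-1 or MVT-1. The cause was not tested. Ccne1 in M6 against the other 11 models passed without 6DT1 (adjusted p = 0.016), D2A1 (0.046), E0771 (0.020) or EMT-6 (0.034). Deviations of same-numbered tumors had correlations of -0.65 to 0.56, with medians of 0, -0.05, 0.02 and 0.11 for replicates 1 to 4. No general pairing by number was seen, though these values cannot exclude a shared effect in some tumors. With the replicate block 7291 genes were called for M6 against the other 11 models and 7001 against the other FVB/N models. The members' counts stayed at 4 and 2.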
